A study of Sus scrofa with 4 samples.

Results

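The genes described here encode the subunits of the proteasome and the ubiquitin-conjugating enzymes, measured in fibroblasts grown from healed skin wounds of Duroc pigs. Members were the genes whose symbol starts with PSM or UBE2 and that had at least 1 probeset carrying that symbol alone. The immunoproteasome genes PSMB8, PSMB9 and PSMB10 and the mitotic enzyme UBE2C were left out by rule. This gave 61 genes of 6765 with such a probeset, each read by its brightest probeset over the 4 arrays. They were 14 subunits of the proteasome core, 17 genes of the regulatory cap, 7 other proteasome genes (activators, an inhibitor and assembly chaperones) and 23 UBE2 genes. All but UBE2QL1, at signals of at most 23.3, were bright enough to be tested, which left 60 of 5272 tested genes.

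Shallow and deep wounds were made on the back of each of 2 Duroc pigs and biopsied 20 weeks later. Fibroblasts were cultured in medium with fetal bovine serum until confluent, and their total RNA was hybridized to Affymetrix arrays for pig transcripts. Each pig gave 1 shallow and 1 deep array, so that n = 2 per depth, and pairs of values are given as pig 1, then pig 2. Which shallow array shares a pig with which deep array rests on reading the partner numbers of the labels in listed order, and differences within a pig depend on that reading. All cells had been through culture, and none came from unwounded skin. The comparison asks what wound depth changes in the fibroblasts of 1 animal.

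Most cellular proteins that are to be destroyed are first tagged with chains of ubiquitin, a small protein. An E1 enzyme activates ubiquitin, an E2 (the UBE2 family) carries it, and an E3 ligase helps the E2 to place it on a target. The proteasome then degrades the tagged protein. Its core is a barrel of alpha (PSMA) and beta (PSMB) rings with the protein-cutting sites inside. Its cap holds ATPases (PSMC), which unfold proteins, and non-ATPase subunits (PSMD), some of which recognise or remove ubiquitin. Fibroblasts, which make and secrete much protein, rely on this system for the turnover of misfolded and regulatory proteins.

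The arrays had a common scale but were not alike in quality or in cell content. The 3' to 5' ratio of the actin control, which grows with RNA degradation or poor labelling, was lower in shallow (1.96 and 2.41) than in deep (3.28 and 6.10). That of GAPDH differed less (1.53 and 1.67 in shallow, 1.75 and 2.06 in deep). The deep array of pig 2 also had the highest mean signal of hybridization controls (3406, against 1003 to 1390). Its 28S rRNA signal was 9146, against 1401 to 4171, and its highest absent-transcript control 30.9, against 13.6 to 16.1. Of the epithelial markers, 8 had a probeset, and their summed signal came to 5760 in shallow pig 1 and to 169 to 321 on the others. All 8 were above the highest absent-transcript control on that array, against 3 in shallow pig 2, 5 in deep pig 1 and 2 in deep pig 2. On those other arrays KRT8 read 95.1 to 196 and CLDN4 36.6 to 41.6, while KRT19 read at most 1.58 and DSP at most 6.18. Of the 11 fibroblast markers with a probeset, 11 were above that control on all arrays, with summed signals of 40959 and 47477 on the shallow and 64855 and 100831 on the deep arrays. Of 5 leukocyte markers 1, CD14, was above that control on all arrays, at 33.1 to 81.5; PTPRC read at most 23.2 and TYROBP at most 5.00. Of 6 endothelial markers 1 was above it on all arrays, PECAM1, at 601 and 152 in shallow and 223 and 281 in deep. CLDN5 read 114 and 56.6 in shallow and 33.6 and 16.2 in deep, and CDH5 at most 15.1. Summed leukocyte signals were 76.6 to 131 and summed endothelial signals 249 to 739, highest in shallow pig 1. Smooth muscle and pericyte markers, 5 with a probeset, summed to 702 and 1167 in shallow and 4758 and 3381 in deep. ACTG2 made up most of each sum, at 492 and 717 in shallow and 4269 and 2914 in deep. CNN1 and DES were also higher on both deep arrays, while RGS5 and MCAM overlapped between depths. Cell-cycle genes summed to 16304 and 5369 in shallow and 2396 and 2840 in deep. The part of these array differences in the values below was not tested.

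No proteasome or UBE2 gene passed the test between deep and shallow wounds. Of 60 genes 0 had an adjusted p under 0.05 (limma with the pig as block, adjusted over all probesets by Benjamini-Hochberg), where 0.398% of the 5272 tested genes passed by their brightest probeset. At an unadjusted p under 0.05 there were 2 lower genes, UBE2T and UBE2M, and 0 higher, against 8.06% and 7.4% of all genes. The differences were small: 55 of 60 genes, or 91.7%, lay within 0.5 of 0 on the log2 scale, against 67.9% of all genes. The standard deviation of the differences over the 60 genes was 0.25, and 0.64 over all genes. The lowest signal was 50.6 among the 60 genes and 2.02 among all genes, and the median standard error was 0.27 and 0.31. The part of brightness in the narrower spread was not tested. Slightly more lay below 0 than in the background (43 of 60, or 71.7%, against 53.6% of all genes), with a median deep minus shallow difference of -0.16, against -0.022 over all probesets and -0.038 over all genes read by their brightest probeset.

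**Figure D1:**
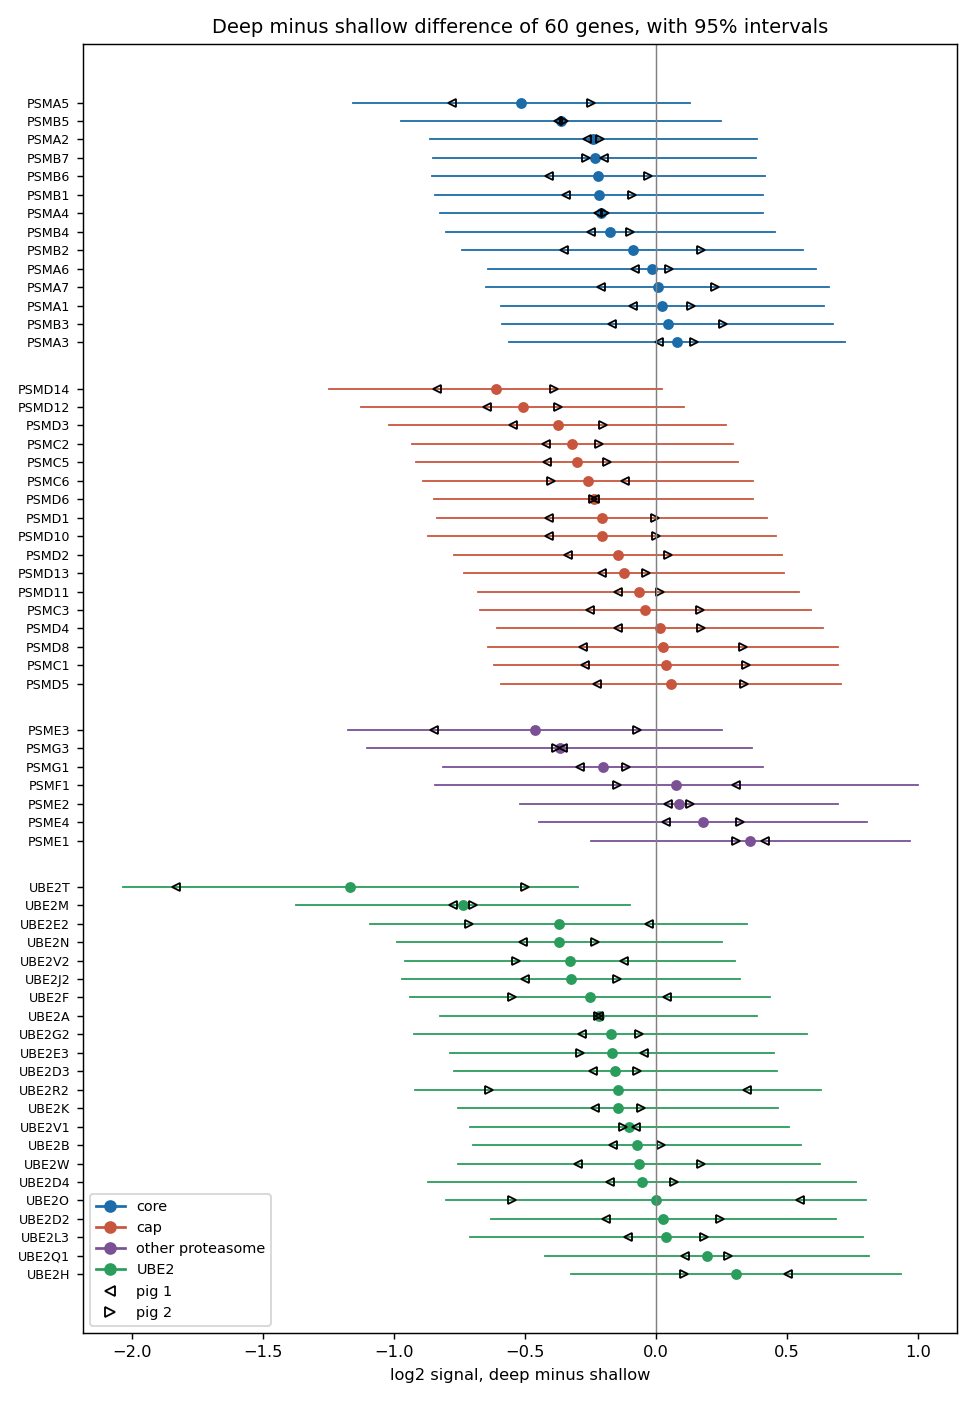
Deep minus shallow difference in log2 signal of the 60 tested genes, sorted within 4 groups. Filled points are means over both pigs with 95% intervals of the moderated fit, and open triangles are the single pigs; only the intervals of UBE2T and UBE2M lie wholly below 0.

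None of the 14 core subunits passed the test. Their median difference was -0.19, and the 14 values ran from -0.51 to 0.078. The deep arrays were both below the shallow ones for 8 of the 14, or 57.1%, and both above them for 0; over all genes these shares were 28.4% and 23.7%. The smallest adjusted p among them was 0.463. The 95% intervals of all 14 held 0, and none reached beyond -1.16 or 0.72.

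Among the core genes, the alpha-ring subunit PSMA5 differed most. It read 1859 and 1259 in shallow and 1084 and 1059 in deep. The deep arrays were nearly equal, and the shallow array of pig 1 stood above the other 3. The difference was -0.51 ± 0.28 (SE, limma, adjusted p = 0.463), and leaving out the shallow array of pig 1 gave -0.23. PSMA2 and PSMA4 differed by -0.24 and -0.21, with nearly the same size in each pig. The remaining alpha subunits PSMA1, PSMA3, PSMA6 and PSMA7 overlapped between depths. PSMA7, for example, read 3897 and 3410 in shallow and 3366 and 3981 in deep, so that its difference had an interval of -0.65 to 0.66.

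The beta ring carries the catalytic sites. PSMB5, the chymotrypsin-like subunit and the target of proteasome inhibitor drugs, read 2259 and 1851 in shallow and 1741 and 1451 in deep. The depths did not overlap, and the pigs differed by nearly the same amount (-0.38 and -0.35). The difference of -0.36 ± 0.26 did not pass (limma, adjusted p = 0.594), and the fit with the actin ratio in place of the pig gave 0.013. That ratio was higher on both deep arrays, so such a fit separates it from depth poorly. PSMB7, the trypsin-like subunit, read 2726 and 2515 in shallow and 2374 and 2087 in deep. PSMB6, the caspase-like subunit, read 2568 and 2202 in shallow and 1932 and 2157 in deep. For both, the deep arrays lay below the shallow ones, at 0.85 and 0.86 of the shallow level. For PSMB6 the margin was narrow, and the pigs differed by -0.41 and -0.030. The structural beta subunits PSMB1 and PSMB4 did not overlap between depths either (-0.22 and -0.17), while PSMB2 and PSMB3 did. The beta ring had a median of -0.22 over 7 genes and the alpha ring -0.016 over 7; whether the rings differ was not tested.

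The cap genes had much the same range. Their median difference was -0.20 over 17 genes, with values from -0.61 to 0.056. For 8 of the 17, or 47.1%, the deep arrays were both below the shallow ones, and for 0 both above, against 28.4% and 23.7% of all genes. The smallest adjusted p was 0.380, and all 17 intervals held 0.

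PSMD14, the subunit that cuts ubiquitin chains off the substrate before it enters the core, differed most. It read 2663 and 1846 in shallow and 1491 and 1410 in deep. All deep values were below the shallow ones, and the shallow array of pig 1 was the highest by a wide margin. The difference was -0.61 ± 0.28 (limma, adjusted p = 0.380), with an interval of -1.25 to 0.024. Leaving out the shallow array of pig 1 gave -0.35, and the actin ratio as covariate gave -0.34. The lid subunit PSMD12 read 1350 and 1028 in shallow and 863 and 794 in deep, a difference of -0.51 ± 0.27 (limma, adjusted p = 0.449) that became -0.31 on leaving out the shallow array of pig 1. PSMD3, also of the lid, read 604 and 507 in shallow and 413 and 440 in deep (-0.38 ± 0.28). For each of these the depths did not overlap.

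The ATPases of the cap had a narrower range, from -0.32 to 0.037. PSMC2 read 1379 and 1158 in shallow and 1029 and 996 in deep, a difference of -0.32 ± 0.26, and its 2 dimmer probesets gave -0.19 and -0.37. PSMC5 and PSMC6 differed by -0.30 and -0.26, without overlap, while PSMC1 and PSMC3 overlapped between depths (0.037 and -0.041). Cap genes with the smallest differences included PSMD4, a ubiquitin receptor, at 965 and 903 in shallow and 873 and 1017 in deep. PSMD8 read 3033 and 2327 in shallow and 2501 and 2926 in deep, so that the deep values lay within the shallow range. PSMD11, a lid subunit, read 1885 and 1797 in shallow and 1702 and 1815 in deep (-0.067 ± 0.27). PSMD5 and PSMD10, which help to assemble the base of the cap, differed by 0.056 and -0.20 and also overlapped.

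The small downward shift of the core and cap came mostly from pig 1. In pig 1 the deep array was below the shallow array for all 17 cap genes and for 13 of 14 core genes, the exception being PSMA3, where 53.7% of all genes were lower. In pig 2 this held for 9 of 17 cap and 8 of 14 core genes, where 50.4% of all genes were lower. The median difference of the cap was -0.28 in pig 1 and -0.0033 in pig 2, and that of the core -0.24 and -0.061. The shallow array of pig 1 had the highest of the 4 signals for 13 of 17 cap and 10 of 14 core genes, against 37.3% of all genes. That array is also the one with the epithelial and the highest cell-cycle signals given above. Without it, the median was -0.053 for the cap and -0.11 for the core. A larger share of other cells and more RNA per cell cannot be told apart in such cultures.

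**Figure D2:**
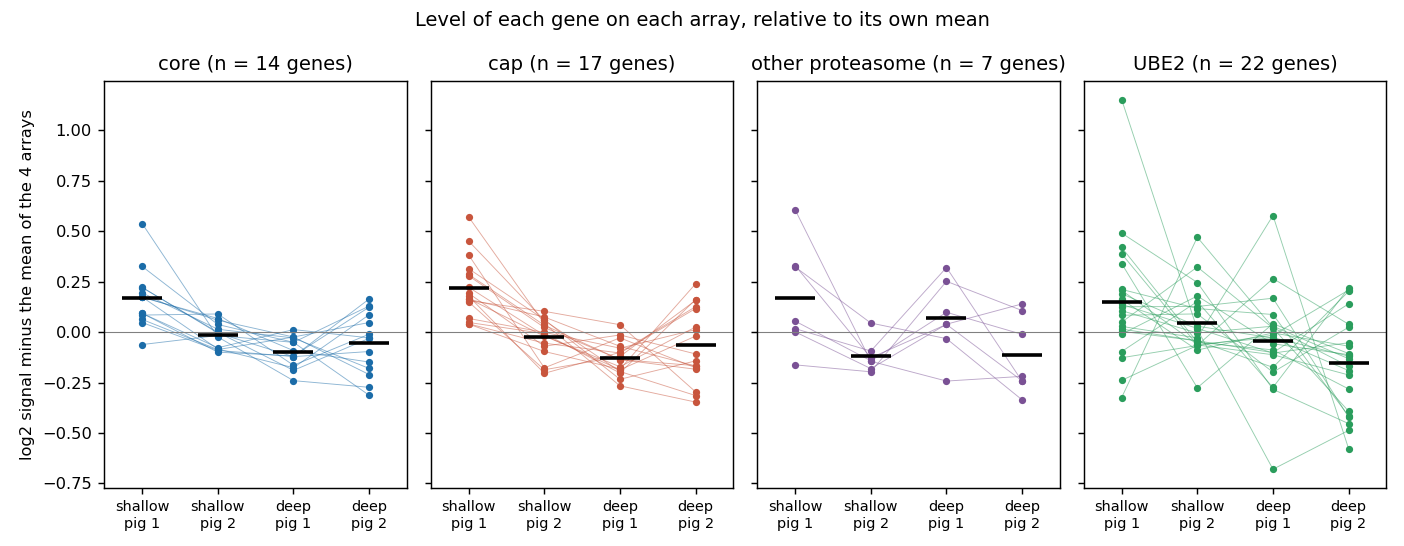
Log2 signal of each tested gene on each array, minus that gene's mean over the 4 arrays, in 4 panels; lines join the arrays of 1 gene and black bars are the group means. The cap mean is 0.22 on the shallow array of pig 1 and between -0.13 and -0.026 on the others.

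**Figure D3:**
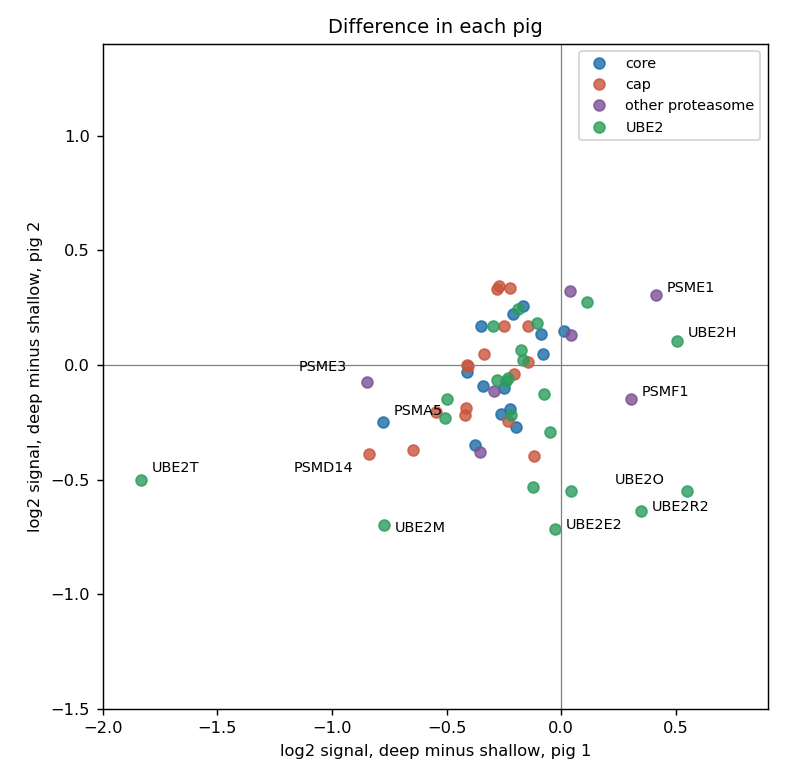
Deep minus shallow difference in log2 signal in pig 1 (horizontal) against pig 2 (vertical) for the 60 tested genes. All 17 cap genes and 13 of 14 core genes lie to the left of 0 in pig 1, and both groups lie on both sides of 0 in pig 2, and UBE2T lies apart at -1.83 and -0.50.

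Of the genes that bind to or assemble the proteasome, the activators went both ways. PSME1, an interferon-inducible subunit of the ring-shaped activator that can replace the cap, read 1043 and 1018 in shallow and 1390 and 1257 in deep. The deep arrays were both above the shallow ones, and the difference of 0.36 ± 0.26 did not pass (limma, adjusted p = 0.599), with 0.29 to 0.43 when any 1 array was left out. Its partner PSME2 read 1229 and 1072 in shallow and 1267 and 1174 in deep, which overlapped (0.087 ± 0.26). PSME3, the nuclear activator, read 582 and 346 in shallow and 323 and 329 in deep. Only the shallow array of pig 1 stood apart, and without it the difference of -0.46 ± 0.31 was -0.086. PSME4, the large single-chain activator, was slightly higher on both deep arrays (687 and 737, against 670 and 590). The assembly chaperones PSMG1 and PSMG3 differed by -0.20 ± 0.26 and -0.37 ± 0.32. PSMF1, which inhibits the core in the test tube, was dim at 50.6 to 74.7, and its 2 probesets gave 0.077 ± 0.40 and 0.66 ± 0.40.

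Of the ubiquitin-conjugating enzymes 0 passed the test, and UBE2T stood apart from the others. Their median difference was -0.15 over 22 genes. Deep lay below shallow without overlap for 10 of the 22, or 45.5%, and above it for 2, or 9.09%, against 28.4% and 23.7% of all genes. Without UBE2T the standard deviation of the differences was 0.22 over 21 genes, and with it 0.30.

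UBE2T, which tags Fanconi anaemia proteins in the repair of cross-linked DNA, differed most of all 60 genes. It read 548 and 249 in shallow and 154 and 176 in deep. Deep was below shallow without overlap, and the shallow array of pig 1 was far above the rest. The difference was -1.17 ± 0.38, or 2.24-fold lower in deep, and did not pass (limma, adjusted p = 0.230). Leaving out the shallow array of pig 1 gave -0.60, and leaving out that of pig 2 gave -1.74, where it passed (limma, adjusted p = 0.000294, with 1 array left at that depth, assumed to vary like the other depth). That fit called 1768 of 14399 probesets, against 49 with all 4 arrays, and 1 of the 60 members. A second UBE2T probeset read 457 and 145 in shallow and 124 and 56.2 in deep, a difference of -1.62 ± 0.33 (limma, adjusted p = 0.0894). Both probesets thus had the same order of depths in each pig.

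The summed cell-cycle signal had the same order of arrays as UBE2T, except between the deep arrays for its second probeset. Of 16 cell-cycle genes tested, 1 fell, against 0.0948% of all genes. This was the kinetochore gene CENPF, with a difference of -3.82 ± 0.55 (limma, adjusted p = 0.0453). It read 511 and 310 in shallow and 83.6 and 9.45 in deep, and the last value was under the highest absent-transcript control of its array (30.9), so that the size of the difference is uncertain. For all 16 deep lay below shallow without overlap, against 28.4% of all genes. Their median was -3.30 in pig 1 and -1.06 in pig 2. Of the 16, CCNA2 (17.3 and 19.8) and PLK1 (16.2 and 21.3) read under the filter signal of 27.1 in deep. Both were bright enough to be tested only through their shallow arrays, so their place among the 16 adds no support. UBE2C, the mitotic E2 left out of the members, read 2317 and 520 in shallow and 243 and 339 in deep (-1.94 ± 0.54, limma, adjusted p = 0.175). Their part in the UBE2T values was not tested.

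UBE2M, the E2 that attaches the ubiquitin-like protein NEDD8 to cullins, had a similar difference in each pig. It read 570 and 481 in shallow and 333 and 296 in deep. The depths did not overlap, and the pigs differed by -0.77 and -0.70. The difference was -0.74 ± 0.28, or 1.67-fold lower in deep (limma, adjusted p = 0.293), with an interval of -1.37 to -0.10. With 1 array left out it stayed between -0.86 and -0.61, and with the actin ratio as covariate it was -0.47. The other NEDD8 E2, UBE2F, read 396 and 396 in shallow and 407 and 271 in deep, so that only the deep array of pig 2 was low. NAE1, a subunit of the NEDD8 E1, read 517 and 347 in shallow and 330 and 235 in deep (-0.61 ± 0.28). Its partner UBA3 differed by 0.21 ± 0.26 and NEDD8 itself by -0.19 ± 0.27. None of these passed.

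**Figure D4:**
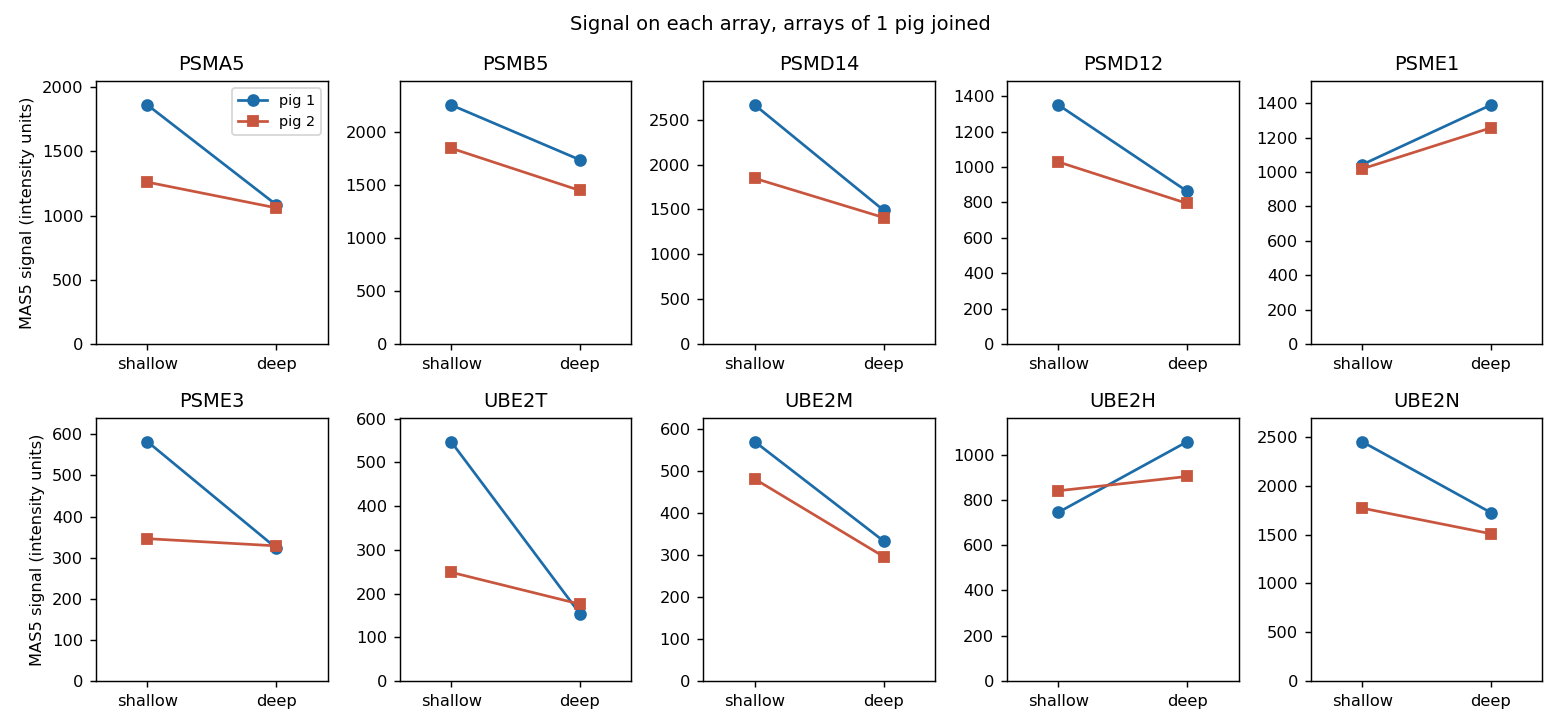
MAS5 signal in intensity units on the shallow and deep array of each pig for 10 genes, with vertical axes from 0 and lines joining the arrays of 1 pig. UBE2M is lower in deep by nearly the same factor in both pigs, while for UBE2T, PSME3 and PSMA5 the shallow array of pig 1 is far above the other 3 arrays.

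UBE2N builds ubiquitin chains that act in signalling rather than degradation, together with the inactive partners UBE2V1 or UBE2V2. It read 2456 and 1774 in shallow and 1727 and 1511 in deep. The depths did not overlap, by a narrow margin, and the difference was -0.37 ± 0.27 (limma, adjusted p = 0.594), or -0.14 without the shallow array of pig 1. UBE2V2 read 1427 and 1336 in shallow and 1309 and 923 in deep (-0.33 ± 0.27); with the actin ratio as covariate it was 0.23. The brightest probeset of UBE2V1 differed by -0.10 ± 0.26, and its 2 dimmer probesets by 0.30 ± 0.35 and 0.39 ± 0.38. Its direction therefore depended on the probeset.

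UBE2D2, an E2 that works with many ligases, read 3858 and 3705 in shallow and 3382 and 4391 in deep, with an interval of -0.63 to 0.68, and its dimmer probesets gave -0.13 and -0.22. UBE2D3 differed by -0.16 ± 0.27. UBE2L3, which works with the ligase parkin, read 143 and 138 in shallow and 133 and 157 in deep (0.039 ± 0.32). UBE2K, UBE2B and UBE2R2 also overlapped between depths, with differences of -0.15, -0.074 and -0.15; for UBE2R2 the pigs were of opposite sign. UBE2A, the close relative of UBE2B in DNA damage tolerance, differed by -0.22 in each pig, and its second probeset by -0.48 ± 0.27. UBE2J2 and UBE2G2, which act on misfolded proteins of the endoplasmic reticulum, differed by -0.32 ± 0.28 and -0.17 ± 0.32.

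A few UBE2 genes differed between the pigs or were higher in deep. UBE2H, the E2 of the multi-subunit CTLH ligase, read 746 and 841 in shallow and 1058 and 905 in deep. Deep lay above shallow without overlap (0.30 ± 0.27, limma, adjusted p = 0.682), and a second probeset gave 0.60 ± 0.28 with the same order of depths. UBE2Q1 was the only other such gene (0.19 ± 0.27), and its second probeset gave 0.20 ± 0.27. UBE2O, a large enzyme that acts as both E2 and E3, differed by 0.55 in pig 1 and -0.55 in pig 2, with 428 and 192 in deep against 292 and 281 in shallow. UBE2R2 differed by 0.35 and -0.64. UBE2E2 was low on the deep array of pig 2 (213, against 284 to 350 on the others), and UBE2E3 differed by -0.17 ± 0.27. UBE2D4 and UBE2W differed by -0.055 ± 0.35 and -0.064 ± 0.30.

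Probesets of the same gene mostly had the same sign. Of the 61 genes, 14 had more than 1 probeset past the filter, and in 3 of these, UBE2D2, UBE2D4 and UBE2V1, the probesets differed in sign. In each of the 3 the brightest probeset was within its standard error of 0.

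**Figure D5:**
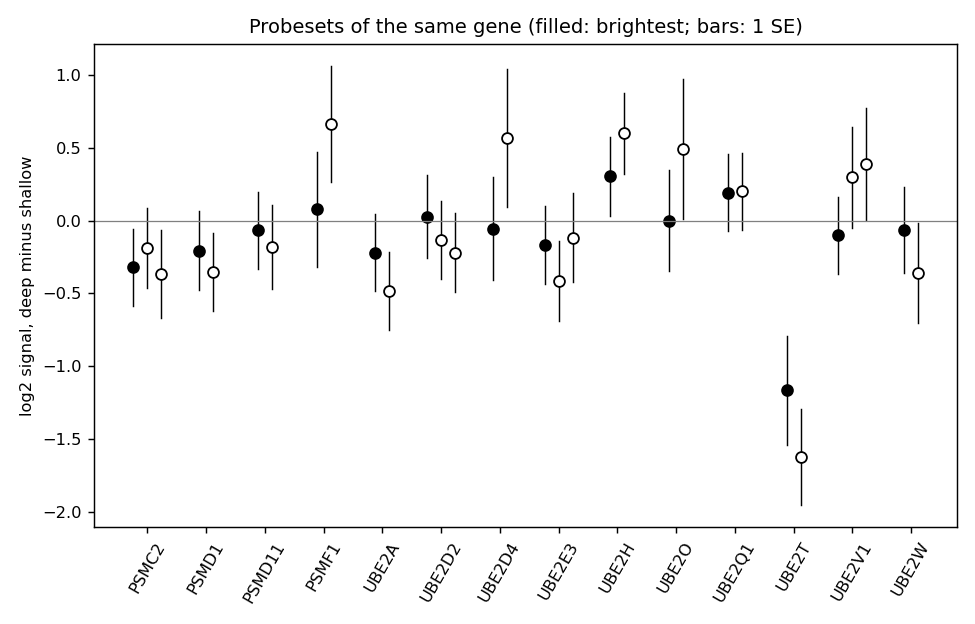
Deep minus shallow difference in log2 signal for each probeset of the 14 genes with more than 1 tested probeset; filled points are the brightest probeset of a gene and bars are 1 standard error. The probesets of UBE2T lie lowest, at -1.17 and -1.62, and those of UBE2H are both above 0.

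Other genes of the pathway were compared by the same fit. Of 11 genes for ubiquitin, ubiquitin-like proteins and their E1 enzymes, 1 rose and 0 fell, against 0.303% and 0.0948% of all genes. The gene that rose was ISG15, an interferon-induced ubiquitin-like modifier, from 162 and 117 in shallow to 633 and 478 in deep (2.00 ± 0.29, limma, adjusted p = 0.0453). SAE1 and UBA2, which form the E1 for the modifier SUMO, differed by -1.00 ± 0.33 and -0.61 ± 0.27. SAE1 read 798 and 404 in shallow and 281 and 286 in deep, so that the shallow array of pig 1 was far above the rest and the pigs differed by -1.51 and -0.50. The ubiquitin genes UBB and RPS27A differed by 0.73 ± 0.31 and 0.73 ± 0.33, and were highest on the deep array of pig 2 (20733 and 22150). Of 15 interferon-response genes tested, 2 passed, ISG15 and RSAD2, against 0.303% of all genes. RSAD2 read 12.2 and 6.42 in shallow, under the absent-transcript controls, and 143 and 63.6 in deep. It was bright enough to be tested only through its deep arrays, so its call adds no support. Deep lay above shallow without overlap in 10 of the 15, RSAD2 included, against 23.7% of all genes. The interferon-inducible immunoproteasome gene PSMB8 was dim at 52.1 to 97.5 and differed by 0.51 ± 0.41, and PSMB10 differed by -0.20 ± 0.31.

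Proteasome partners, cullins with the COP9 signalosome, and the anaphase-promoting complex had 0 of 7, 0 of 11 and 0 of 10 genes past the threshold in either direction. At an unadjusted p under 0.05 they had 0, 0 and 3, all 3 lower, where 8.06% of all genes were lower and 7.4% higher. Medians were -0.27, -0.15 and -0.42. PAAF1, an assembly factor of the cap, differed by -0.64 ± 0.30, and AKIRIN2, which helps to bring proteasomes into the nucleus, by 0.45 ± 0.32. COPS6 and COPS4, subunits of the complex that removes NEDD8 from cullins, differed by -0.54 ± 0.26 and -0.51 ± 0.26, and both were lower on both deep arrays. In the anaphase-promoting complex, the mitotic ligase with which UBE2C works, CDC20 differed by -2.51 ± 0.62 (limma, adjusted p = 0.137) and CDC23 by -1.13 ± 0.28 (limma, adjusted p = 0.143).

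Precision was limited by the number of arrays. Each standard error joined 1 residual degree of freedom of the gene with 6.88 from the variance trend over all tested probesets. It thus mostly reflects that trend and does not measure a gene's own spread between the pigs. UBE2A, at -0.22 in each pig, still had a standard error of 0.26. The standard error of a member's difference was 0.26 to 0.40, and the half-width of a 95% interval was 2.31 standard errors. The lack of calls therefore does not show that levels were equal, and 58 of the 60 intervals held 0.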

How the data were processed

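Total RNA of 4 cultures was hybridized to 4 arrays, 2 per depth. The authors deposited signal intensity per probeset on a linear scale; the submitters' processing notes name GCOS 1.0 and MAS5, and the scaling target was not stated there. The 2% trimmed mean was about 250.1 on each array, and an array carries no read depth. Control probesets were left out. Signals under 1 were set to 1 and taken to log2, and the dimmest 40% by mean (under a signal of 27.1) were dropped, leaving 14399 of 23999 probesets. The platform annotation gave symbols; 81 of the 82 member probesets had a gene identifier in the RefSeq table of pig assembly Sscrofa11.1, and no symbol changed.

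Depths were compared with lmFit and eBayes (trend) of limma 3.58.1 in R 4.3.3, with the pig as block. The fit was also run on arrays simulated with a shared pig effect, which does not show that these data have one. Titles name each sample's partner by number, read as the listed order; departures of the arrays of 1 pig from the depth means correlated at -0.010 over probesets. Differences are deep minus shallow in log2 with the moderated standard error. Cultures of 1 depth came from different pigs. Signals of 17 artificial tag probesets marked the level of absent transcripts. Members and lists were chosen with earlier results of these data known. Named members were the 4 largest differences of equal sign in both pigs and the 4 smallest in each group, with catalytic, activator and other fixed members; of other lists, mainly the 2 largest, plus NEDD8 and interferon genes chosen after their values were seen. Alternatives were other fits, filters, scalings and floors, each gene's mean probeset, and leaving out each array. No promoter or protein sequence was used here.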

Additional observations from a re-analysis of the deposited data

How the results depend on the processing

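With every processing setting tried on all 4 arrays, 0 members were called; without 1 array the number ran from 0 to 1 (UBE2T, without the shallow array of pig 2). The 49 probesets called over the whole array depended on the fit: 0 without the replicate block, 202 with a crossed block that pairs each shallow array with the other pig's deep array, 0 without the filter on dim probesets, 217 with it at the 60th percentile, 93 after quantile normalization, 6 with a floor of 16, 0 with the actin ratio as covariate, and 5 with arrays centred on the median of tested probesets, a setting chosen after seeing the data; without 1 array they ran from 0 to 1768, the last without the shallow array of pig 2. The cause was not tested. Those fits have no block and leave 1 array at a depth, assumed to vary like the other. The median of the UBE2 genes was -0.18 with arrays centred on the median of all probesets, -0.081 on that of tested probesets, -0.048 with the actin ratio, and -0.21 to -0.12 without 1 array. That of the 7 other proteasome genes was -0.058 with the filter at the 60th percentile, which left fewer genes, 0.25 with the actin ratio, and -0.21 to 0.13 without 1 array. Core and cap medians moved by less than the spread between pigs. With the actin ratio as covariate PSMB5 (0.013), UBE2V2 (0.23) and PSMG3 (0.048) changed sign. Other members did so only from values within 1 standard error of 0. The actin ratio was higher on both deep arrays, so the fit with it separates depth from the ratio poorly. That fit gave 283 of 14399 probesets an unadjusted p under 0.05 (limma), against 1995 in the main fit.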
